A study of Rattus norvegicus with 44 samples.

Results

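10 genes that microglia are known to express when they take up lipid and debris were followed in rat hippocampus: Apoe, Trem2, Tyrobp, Spp1, Gpnmb, Axl, Lpl, Cst7, Itgax and Cd68. They were taken by symbol, and the choice was made with earlier results of these data known. All 10 have a row among the 20003 genes of the CA1 table and the 20050 of the dentate gyrus (DG) table. Each of 22 male rats contributed both regions of 1 hippocampus, so that 44 libraries of polyadenylated RNA were sequenced. The young vehicle group (n = 8) was 5 to 7 months old and received intraperitoneal saline weekly for 7 weeks, and the young LPS group (n = 8) was of the same age and was given lipopolysaccharide (LPS), an endotoxin of bacteria, at a dose of 1 mg per kg in its place. The aged vehicle group (n = 6) was 14 to 16 months old and received saline. All rats were sampled 48 hours after the seventh injection, and the strain is not given in the sources used here. Each region was examined by 3 comparisons: LPS against young vehicle, aged against young vehicle, and young LPS against aged vehicle. In the last, age and treatment both differ.

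Microglia, the resident macrophages of the brain, clear debris, myelin and dying cells. Around damage and amyloid they are known to take on a disease-associated state, in which the lipid receptor Trem2 and its signalling partner Tyrobp are needed for the full switch. Genes of lipid transport and lysosomes go up in that state and genes of the resting state, such as P2ry12 and Cx3cr1, go down. Several of these genes have other sources in hippocampus: astrocytes make most brain Apoe, and neurons make Lpl. In bulk tissue, fewer cells of a type and less RNA per cell cannot be told apart.

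Promoter sequences are shown for Gpnmb, which had the smallest p of the 8 tested genes in DG of aged rats, and for Axl, the gene of the 8 that varied most closely with it in CA1. RefSeq (build GRCr8; the deposited tables name rn6) gave 10 promoters for 8 of the 10 genes, none for Tyrobp or Lpl. The 250 bases before the start site are given 5′ to 3′ on the gene's strand. Gpnmb lies on the plus strand at chr4:79340878-79341127, and its capitals mark an M-box (TCACATGA), the element bound by the lysosomal and pigment cell factors of the Mitf family, 15 bases before the start site. Axl lies on the minus strand at chr1:90424010-90424259, and its capitals mark a GC box (GGGCGG), 43 bases before the start site.
Gpnmb: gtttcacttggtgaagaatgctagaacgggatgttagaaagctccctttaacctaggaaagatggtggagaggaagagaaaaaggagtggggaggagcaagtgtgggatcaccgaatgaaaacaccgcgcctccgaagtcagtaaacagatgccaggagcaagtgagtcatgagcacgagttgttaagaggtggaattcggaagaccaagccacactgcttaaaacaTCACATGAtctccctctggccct
Axl: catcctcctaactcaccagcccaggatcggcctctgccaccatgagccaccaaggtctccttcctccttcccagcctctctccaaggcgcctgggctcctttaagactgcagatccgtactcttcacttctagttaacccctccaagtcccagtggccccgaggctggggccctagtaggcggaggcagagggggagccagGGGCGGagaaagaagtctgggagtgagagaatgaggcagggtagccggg
On either strand, the M-box was in 0.977% of 33469 promoters of this length and, among the 10 promoters of these genes, in that of Gpnmb. The GC box was in 30.5% of all promoters and in 4 of the 10. The macrophage PU.1 element (GAGGAAGT) was in 2.04% of all promoters and in 0 of the 10.

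In CA1 a library held between 12292348 and 18749672 recovered reads, and in DG between 12130182 and 23519792. Values below are the deposited normalized counts, and log2 changes are on the scale of log2(normalized count + 1), which understates the change of low genes. Markers of resting microglia were measured in both regions (17 of 18 passed the filter on low values), so microglial RNA was present. A few libraries stood apart. In CA1, that of aged rat 2532 received a weight of 0.09 when limma weighted the libraries by their fit, the lowest of the region. Vehicle rat 2572 had the next lowest, 0.251. In CA1 of young vehicle, the highest library mean was 1.43 for 10 markers of meningeal fibroblasts (group median -0.18). For 6 markers of choroid plexus it was 3.8 (group median -0.37). In DG, the libraries of rats 2526, 2572 and 2532 had means of 1.89, 2.17 and 2.01 for 5 markers of meningeal fibroblasts (log2, relative to the mean over libraries), against a median of -0.34 in young vehicle.

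Across the 6 comparisons within a region, 8 of the 10 genes passed the filter on low values and were tested, and 0 of 8 passed an adjusted p of 0.05 (limma, Benjamini-Hochberg over all genes) in any. In CA1 the share of all genes that passed was 0% for LPS against vehicle, 0.0134% for aged against vehicle and 8.73% for LPS against aged. In DG it was 0.0134% in each comparison. At an unadjusted p below 0.05, the genes followed here numbered 2 of 8 for LPS and 1 of 8 for age in CA1, where the shares of all genes were 6.87% and 12.6%. In DG they numbered 1 of 8 for LPS and 1 of 8 for age, where the shares were 7.53% and 2.99%. For LPS against aged they numbered 1 of 8 in CA1 (35.8% of all genes) and 0 of 8 in DG (9.1%). Of the 8 genes, 7 with LPS and 6 with age had a log2 change above 0 in CA1 (52.2% and 50.4% of all genes), and 4 and 6 in DG (48.8% and 51.8%). Their median log2 change in CA1 was 0.26 with LPS and 0.21 with age, beside 0.012 and 0.0027 over all genes tested. In DG the medians were 0.057 and 0.13, beside -0.0041 and 0.0059. Markers of some other cells had medians of like size with LPS in CA1. The astrocyte median was 0.25 (8 of 10 above 0, and 4 of 10 at an unadjusted limma p below 0.05). Oligodendrocytes had 0.23 (8 of 10), their precursors 0.23 (5 of 6) and CA1 pyramidal neurons 0.28 (7 of 7). Other medians were 0.76 for blood cells, 0.099 for endothelial cells, 0.081 for mural cells and -0.0077 for meningeal fibroblasts. Lower were perivascular macrophages (-0.41), dentate granule neurons (-0.42, 0 of 7 above 0) and choroid plexus (-0.51). The medians with age in CA1 were 0.13 (astrocytes), -0.068 (oligodendrocytes), -0.19 (their precursors), 0.011 (CA1 pyramidal neurons) and -0.39 (dentate granule neurons). Blood cells had 0.45 with age, perivascular macrophages 0.16 and endothelial cells -0.0021. Below these were choroid plexus (-0.062), mural cells (-0.20) and meningeal fibroblasts (-0.27). The part of these markers in the changes of the 8 genes was not tested. The groups overlapped for each of the 8 genes in each comparison, while the share of all genes whose groups did not overlap was 0.0134%, 0.235% and 0.838% in CA1 for LPS, age and LPS against aged, and 0.0403%, 0.0738% and 0.443% in DG. Both contrasts against vehicle use the same vehicle libraries, so their values are not independent.

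**Figure D1:**
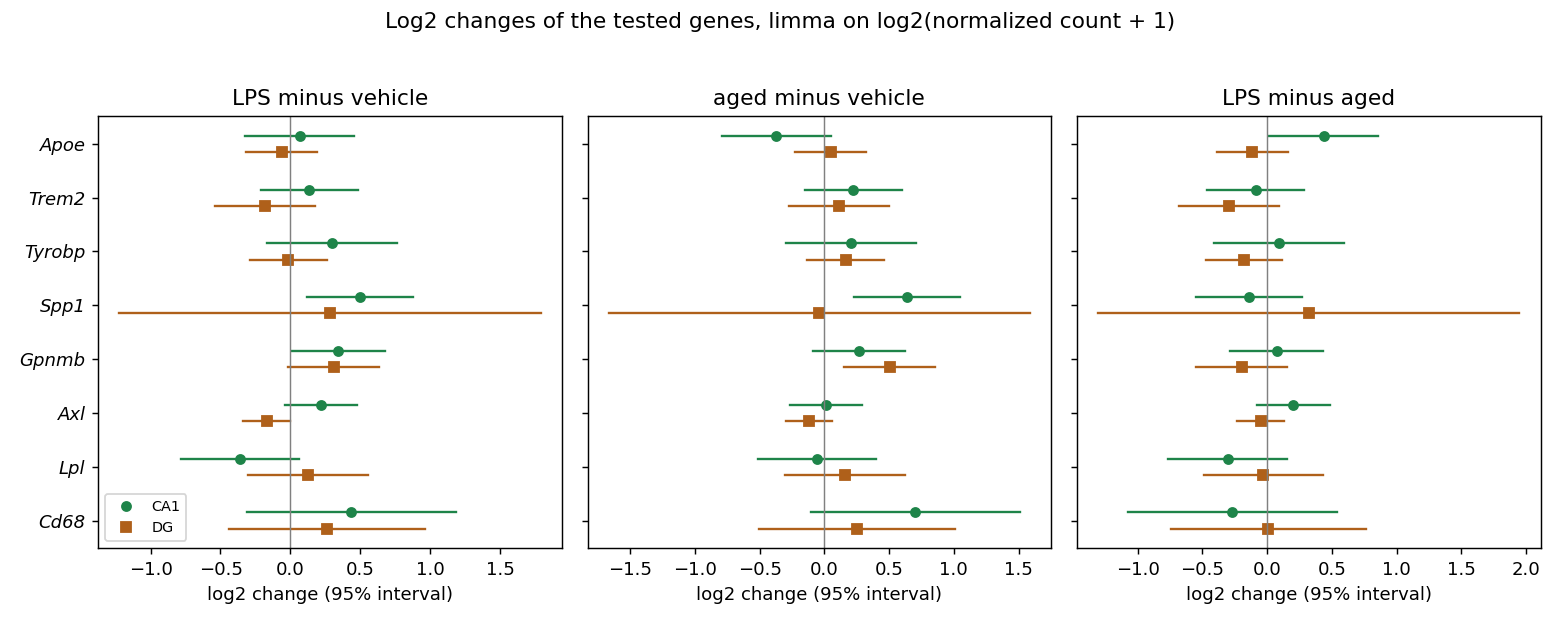
Log2 change (x axis, with 95% intervals from limma) of each tested gene (y axis) in CA1 (green circles) and DG (brown squares), for LPS minus vehicle, aged minus vehicle and LPS minus aged. Spp1 in CA1 and Gpnmb in DG lie to the right of 0 in aged rats, and the intervals of Spp1 in DG are the widest.

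Apoe encodes the main lipid carrier of the brain, a ligand of Trem2. In CA1 it ran from 30869 to 62679 (median 36681) normalized counts in young vehicle, from 33028 to 51404 (40718) in young LPS and from 11843 to 39955 (35021) in aged vehicle. The lowest value was that of aged rat 2532, the other 5 aged rats lay from 31306 upwards, and the highest was that of vehicle rat 2572. LPS gave a log2 difference of 0.066 (SE 0.19, limma adjusted p = 0.909; 0.17 without vehicle rat 2572 and 0.015 without LPS rat 2404) and age -0.37 (SE 0.20, limma adjusted p = 0.403). Without rat 2532 the age difference was -0.10. LPS against aged gave 0.44 (SE 0.20, limma adjusted p = 0.128), and 0.17 without that rat. With the resting microglia mean as a term in the fit, Apoe was the 1 gene of 8 that passed for LPS against aged in CA1, at 0.53 (limma adjusted p = 0.0344), as did 27.1% of all genes.

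In DG, Apoe ran from 26631 to 47836 (31976) in young vehicle, from 24197 to 42835 (31033) in young LPS and from 28722 to 42744 (34142) in aged vehicle. The 3 groups covered nearly the same range, and the vehicle rats 2526 and 2572, with raised meningeal and perivascular markers, gave the 2 highest vehicle values, 44848 and 47836. With LPS the log2 change was -0.064 (SE 0.12, 95% interval -0.32 to 0.19), and with age it was 0.050 (SE 0.13, 95% interval -0.22 to 0.32).

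Lpl encodes lipoprotein lipase, which frees fatty acids from lipoprotein particles. CA1 values of Lpl ran from 489.2 to 1189 (median 567.7) in young vehicle, from 373.6 to 631.9 (508.2) in young LPS and from 415.5 to 1447 (538.1) in aged vehicle. The top values were each from 1 rat, 2410 in vehicle and 2532 in aged, and the next highest were 751 and 629.8. With LPS, 1 of 8 rats lay above the vehicle median, and the log2 change was -0.36 (SE 0.21, limma adjusted p = 0.654), or -0.23 without vehicle rat 2410. With age it was -0.057 (SE 0.22, limma adjusted p = 0.91), or -0.31 without rat 2532 and 0.074 without rat 2410.

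In DG, Lpl ran from 408.1 to 1361 (1058) in young vehicle, from 704.3 to 1509 (1052) in young LPS and from 801.6 to 1241 (1128) in aged vehicle. The lowest DG library was that of rat 2410, whose CA1 library was the highest of its group. The DG library of this rat also had the highest mean of 7 CA1 pyramidal markers in its group (1.46) and a mean of 0.85 for oligodendrocyte markers; the part of these in its Lpl value was not tested. The log2 change of Lpl was 0.13 (SE 0.21) with LPS and 0.16 (SE 0.22) with age. Without rat 2410 both were below 0, at -0.045 and -0.017. Over each group, the mean of the CA1 pyramidal markers in DG had a median of -0.34 in young vehicle, 0.26 in young LPS and 0.92 in aged vehicle, with overlapping ranges. With age 7 of 7 of these markers were above 0 (median log2 change 0.76) and none passed.

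Trem2 encodes the lipid-sensing surface receptor on which the disease-associated state depends. CA1 values of Trem2 ran from 101.4 to 304.1 (median 136.8) in young vehicle, from 124.9 to 219.2 (166.1) in young LPS and from 128.1 to 197.3 (185.6) in aged vehicle. Vehicle rat 2572 was the highest of all 22 libraries, and without it the vehicle rats ended at 188.4. Above the vehicle median lay 7 of 8 LPS rats and 5 of 6 aged rats. Trem2 had a log2 difference of 0.13 (SE 0.17, limma adjusted p = 0.769) with LPS and 0.22 (SE 0.18, limma adjusted p = 0.525) with age, or 0.28 and 0.37 without rat 2572, and 0.055 and 0.14 without vehicle rat 2722. The library of rat 2572 also had a mean of 0.42 for the resting microglia markers, the highest of its group.

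In DG, Trem2 ran from 89.7 to 193.8 (125.7) in young vehicle, from 59.6 to 167.2 (116.1) in young LPS and from 131.1 to 147.9 (141) in aged vehicle. The aged rats lay close together, inside the range of both young groups. Its log2 difference was -0.18 (SE 0.17) with LPS, 0.11 (SE 0.19) with age and -0.30 (SE 0.19, limma adjusted p = 0.671) for LPS against aged. Without LPS rat 2543 the first and the last were -0.051 and -0.16, and the age difference was 0.036 without vehicle rat 2722 and 0.19 without vehicle rat 2572.

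Tyrobp encodes DAP12, the adaptor that carries the signal of Trem2 into the cell. In CA1 it ran from 129.6 to 279.6 (median 171) in young vehicle, from 172.3 to 336.1 (225.6) in young LPS and from 87.5 to 404 (225) in aged vehicle. Aged rats 2532 and 2420 gave the lowest and the highest value of all CA1 libraries, and all 8 LPS rats lay above the vehicle median. Tyrobp had a log2 difference of 0.30 (SE 0.22, limma adjusted p = 0.664) with LPS and 0.21 (SE 0.24, limma adjusted p = 0.668) with age. The age value was 0.46 without rat 2532 and 0.021 without rat 2420, so it turned on these 2 rats. With library weights, which were 0.09 for rat 2532 and 2.65 for rat 2420, the lowest and the highest of the aged group, it was 0.75 (limma adjusted p = 0.0207). That setting called 3 of the 8 genes for age in CA1 (Tyrobp, Spp1 and Gpnmb) and 2.03% of all genes.

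In DG, Tyrobp ran from 120.1 to 196.8 (173.7) in young vehicle, from 122.4 to 228 (157) in young LPS and from 135.3 to 210.4 (188.5) in aged vehicle. Among the aged rats, 2531 was low at 135.3 and the other 5 lay from 184.7 upwards. Its log2 difference was -0.014 (SE 0.13) with LPS and 0.16 (SE 0.14) with age, or 0.25 without rat 2531 and 0.10 without vehicle rat 2728.

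Axl encodes a receptor tyrosine kinase that binds dying cells through its ligand Gas6. CA1 values of Axl ran from 536.5 to 945.5 (median 722.9) in young vehicle, from 667.5 to 1127 (831.4) in young LPS and from 612.3 to 804 (762) in aged vehicle. The LPS rats reached higher than the other groups, with 6 of 8 above the vehicle median, and the log2 change was 0.22 (SE 0.12, limma adjusted p = 0.654). With age it was 0.016 (SE 0.14, 95% interval -0.26 to 0.29).

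In DG, Axl ran from 575.2 to 752.3 (698.1) in young vehicle, from 533.3 to 694.8 (612.3) in young LPS and from 535.6 to 732.3 (604) in aged vehicle. None of the 8 LPS rats reached the vehicle median. Its log2 difference was -0.17 (SE 0.081, unadjusted p = 0.0438, limma adjusted p = 0.663) with LPS and -0.12 (SE 0.087, limma adjusted p = 1) with age, or -0.076 without aged rat 2531. Axl had the narrowest intervals of the 8 genes in DG.

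Itgax encodes CD11c, an integrin of phagocytes that marks the disease-associated state. It was near the limit of detection: 31 reads in all 22 CA1 libraries together, with at least 1 read in 13 of them, and 32 reads in DG, in 14 libraries. The most reads in a library were 5 in CA1, in LPS rat 2573, and 6 in DG, in aged rat 2532. In DG the reads summed to 10 in young vehicle, 6 in young LPS and 16 in aged vehicle. The CA1 sums were 9, 15 and 7 in the same order. Itgax did not reach the filter on low values, and 0 reads in a library allow up to 3. Fitted without that filter, LPS against aged in DG gave -1.05 (unadjusted p = 0.0217, limma adjusted p = 0.521) and aged against vehicle 0.69 (unadjusted p = 0.119, limma adjusted p = 1).

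Spp1 encodes osteopontin, a secreted ligand of integrins and CD44 made by phagocytic microglia and macrophages. CA1 values of Spp1 ran from 23.5 to 65.5 (median 43.7) in young vehicle, from 43.8 to 79.2 (61.6) in young LPS and from 54 to 78.9 (65.3) in aged vehicle. All 8 LPS rats and all 6 aged rats lay above the vehicle median, and the groups overlapped. Vehicle rat 2572, whose Apoe and Trem2 were the highest of its group, had the lowest Spp1. Spp1 had a log2 difference of 0.50 (SE 0.18, 95% interval 0.12 to 0.88, unadjusted p = 0.012, limma adjusted p = 0.654) with LPS. With age it was 0.64 (SE 0.20, 95% interval 0.23 to 1.05, unadjusted p = 0.00352, limma adjusted p = 0.393), the 107th smallest p of 14915 genes. With each CA1 library left out in turn, it stayed between 0.52 and 0.73, and with library weights it was 0.68 (limma adjusted p = 0.0209).

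In DG, Spp1 was low: it ran from 2.86 to 40.5 (median 17.3) in young vehicle, from 1.21 to 49.3 (21.9) in young LPS and from 0 to 62.9 (15.8) in aged vehicle. The values of each group were widely spread, and the lowest and the highest DG values were both from aged rats, 2531 and 2532. The log2 change was 0.28 (SE 0.73, 95% interval -1.22 to 1.79) with LPS and -0.039 (SE 0.79, 95% interval -1.67 to 1.59) with age. Differences of the size seen in CA1 were not detectable here.

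Gpnmb encodes a glycoprotein of lysosomes and the cell surface that is a marker of lipid-laden macrophages. In CA1 it ran from 108.9 to 213.9 (median 159.4) in young vehicle, from 144 to 322.6 (188.3) in young LPS and from 134.2 to 227.9 (201.7) in aged vehicle. LPS rat 2404 gave the highest value, and also the highest Axl, Apoe, Tyrobp and Cd68 of its group. Gpnmb had a log2 difference of 0.34 (SE 0.16, unadjusted p = 0.0437, limma adjusted p = 0.654) with LPS, or 0.24 without rat 2404. With age it was 0.27 (SE 0.17, limma adjusted p = 0.446), and 0.47 with library weights (limma adjusted p = 0.0393).

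In DG, Gpnmb ran from 88.6 to 167.6 (126.9) in young vehicle, from 120.2 to 213.7 (164) in young LPS and from 125.2 to 260.9 (179.4) in aged vehicle. Above the vehicle median lay 7 of 8 LPS rats and 5 of 6 aged rats, and 4 of 6 aged rats exceeded every vehicle rat. The log2 change was 0.31 (SE 0.16, limma adjusted p = 0.671) with LPS. With age it was 0.50 (SE 0.17, 95% interval 0.15 to 0.85, unadjusted p = 0.0064, limma adjusted p = 1), the 51st smallest p of 14904 genes. Aged rat 2532, the highest, had raised meningeal markers, and without it the age difference was 0.40. The 4 differences against vehicle (LPS and age, CA1 and DG) thus ran from 0.27 to 0.50, with the vehicle libraries shared within a region.

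Cd68 encodes a glycoprotein of lysosomes in phagocytes. CA1 values of Cd68 ran from 11.8 to 28.5 (median 16.4) in young vehicle, from 11.4 to 32.3 (24.7) in young LPS and from 12.8 to 150.5 (22.3) in aged vehicle. The value of 150.5 was that of aged rat 2420, and the other 5 aged rats ended at 33.5. That library also had the highest mean of the 17 resting microglia markers in its group (0.44) and the highest Tyrobp. The log2 change was 0.44 (SE 0.36, limma adjusted p = 0.684) with LPS and 0.70 (SE 0.39, limma adjusted p = 0.404) with age. Without rat 2420 the age difference was 0.22.

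In DG, Cd68 ran from 5.54 to 23.7 (12.7) in young vehicle, from 6.07 to 25.7 (18) in young LPS and from 10.1 to 20 (14.5) in aged vehicle. Rat 2420 was unremarkable in this region, at 18.5. The log2 change was 0.26 (SE 0.34) with LPS and 0.25 (SE 0.37) with age, with the 3 groups on top of each other. Without vehicle rat 2731 these were 0.12 and 0.11, without LPS rat 2547 the first was 0.42, and without vehicle rat 2410 the second was 0.38.

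Cst7 encodes cystatin F, an inhibitor of lysosomal cysteine proteases and a hallmark of the disease-associated state. It had 6 reads in all 22 CA1 libraries and 6 in all 22 DG libraries. Reads were found in 5 CA1 and 4 DG libraries, and no library exceeded 2.08 normalized counts. In CA1 they summed to 1 read in young vehicle, 3 in young LPS and 2 in aged vehicle. Fitted without the filter on low values, its smallest p within a region was that of aged against vehicle in DG, 0.27 (unadjusted p = 0.385, limma adjusted p = 1), so no difference between groups was detectable at this depth.

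**Figure D2:**
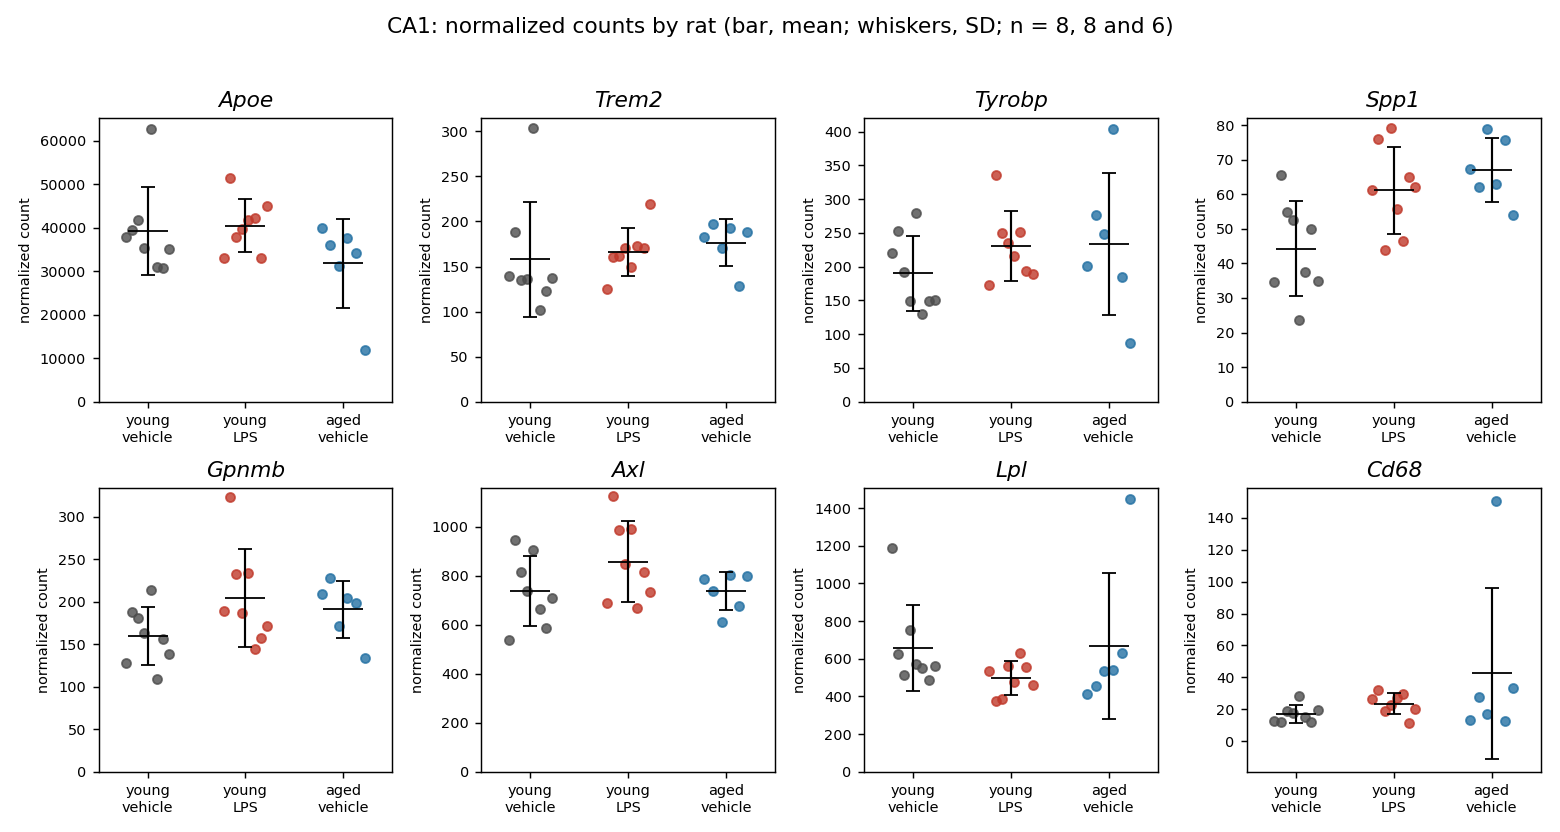
Normalized counts in CA1 (y axis, linear from 0) for each rat (points) of the 3 groups (x axis), 1 panel per tested gene, with mean (bar) and SD (whiskers). Single rats carry the extremes: Apoe at 11843 and Lpl at 1447 in aged rat 2532, Cd68 at 150.5 in aged rat 2420, and Trem2 at 304.1 in vehicle rat 2572.

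**Figure D3:**
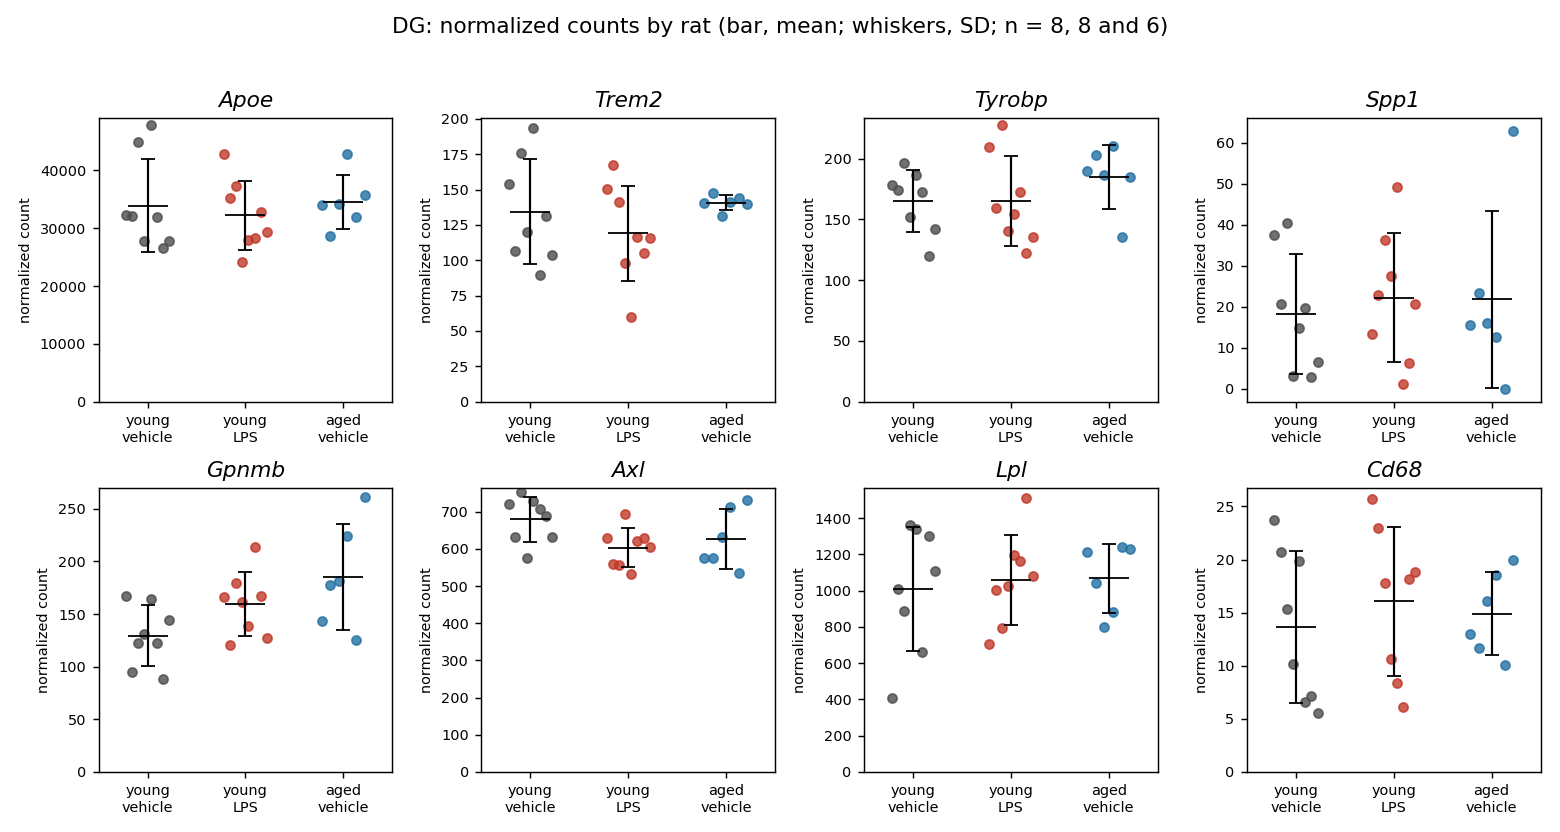
The same for DG, with normalized counts on the y axis, rats as points, and mean and SD as bar and whiskers. The aged rats lie close together for Trem2 (131.1 to 147.9), 4 of 6 lie above all vehicle rats for Gpnmb, and the Spp1 values of all groups reach down to a few counts or to 0.

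Whether an effect differed between CA1 and DG was tested on the difference within each rat, and 0 of 8 genes passed in any of the 3 contrasts (shares of all genes passing 0.00683% for LPS, 0% for age and 8.98% for LPS against aged). At an unadjusted p below 0.05 they numbered 1 of 8 for LPS, 0 of 8 for age and 1 of 8 for LPS against aged, where the shares of all genes were 13%, 5.21% and 32.6%. The largest difference for LPS relative to its error was that of Axl, 0.39 (SE 0.17, 95% interval 0.044 to 0.73, unadjusted p = 0.0288, limma adjusted p = 0.372), from 0.22 in CA1 and -0.17 in DG. For Lpl it was -0.49 (SE 0.33, limma adjusted p = 0.487), or -0.19 without rat 2410. For LPS against aged, Apoe gave 0.55 (SE 0.24, unadjusted p = 0.0302, limma adjusted p = 0.114), or 0.27 without rat 2532. For Gpnmb the LPS effect differed by 0.034 (SE 0.27, 95% interval -0.52 to 0.59), an interval wide enough to hold the whole effect.

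The tables were normalized separately, so levels in the 2 regions are set side by side as reads per 1000000 recovered reads, without a test. Lpl had a median of 35.6 in CA1 and 67.3 in DG and was higher in DG in 20 of 22 rats. The other 7 tested genes had the higher median in CA1. Spp1, at 3.73 and 1.12, was higher in CA1 in 20 of 22 rats. Tyrobp, at 13.1 and 10.8, was higher there in 19 rats, Axl, at 47.9 and 39.5, in 18, Cd68, at 1.24 and 0.958, in 18, Apoe, at 2370 and 2040, in 17, Trem2, at 10.1 and 8.4, in 17, and Gpnmb, at 11.6 and 9.25, in 16.

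Other genes of these pathways were taken from lists chosen with earlier results of these data known. With LPS and with age, none of their tested genes passed in either region. In CA1 of LPS rats the 26 other tested genes of the disease-associated state had a median log2 change of 0.040, and 16 were above 0. The smallest p was that of Npc2, a lysosomal cholesterol carrier, at 0.35 (SE 0.14, limma adjusted p = 0.654). In CA1 of aged rats 21 of the 26 were above 0 (median 0.12). The smallest p there was that of Mitf, a transcription factor of lysosomal genes, at 0.57 (SE 0.19, limma adjusted p = 0.393). In DG the medians were 0.029 with LPS and 0.083 with age, and the smallest p with age was that of the lysosomal protease gene Ctsz, 0.47 (SE 0.17, limma adjusted p = 1).

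From the list of Trem2 and Tyrobp signalling, 20 genes were tested. In CA1 of aged rats 14 were above 0 (median 0.15), led by Pik3cg, a PI3 kinase subunit, at 0.61 (SE 0.14, unadjusted p = 0.000287, limma adjusted p = 0.393). In DG of aged rats 17 were above 0 (median 0.093), and Pik3cg was at 0.33 (SE 0.13, limma adjusted p = 1). Of the 27 lipid and cholesterol genes tested in CA1, 10 were above 0 with age (median -0.076) and 18 with LPS (median 0.11). The cholesterol exporter gene Abca1 had the smallest p with age, at 0.39 (SE 0.15, limma adjusted p = 0.393). Of the resting microglia markers, 14 of 17 were above 0 with age in both CA1 (median 0.15) and DG (median 0.085). With LPS, 12 of 17 were above 0 in CA1 (median 0.11) and 6 of 17 in DG (median -0.062). None of the 17 passed in these contrasts. The receptor genes that bind osteopontin included Cd44, at 0.52 (SE 0.22, limma adjusted p = 0.597) in DG with LPS.

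For LPS against aged in CA1, a few list genes passed, as did 3.49% of all genes in the direction of higher in LPS and 5.24% in that of lower. The Axl relative Mertk, which also clears dying cells, had means of 731 ± 76.5 (SD, n = 8) under LPS against 1146 ± 429.2 (SD, n = 6) at the greater age. Its log2 difference was -0.59 (SE 0.14, limma adjusted p = 0.049), 1 of 4 in its list. Of the 17 resting microglia markers 2 passed, both lower, and the receptor gene Gpr34 was at -0.87 (SE 0.23, limma adjusted p = 0.049). The sheddase gene Adam10, whose product cuts Trem2 from the surface, was at -0.68 (SE 0.20, limma adjusted p = 0.049), 1 of 20. The lysosomal lipase gene Lipa was at -0.34 (SE 0.10) and the cholesterol exporter gene Abcg1 at 0.35 (SE 0.093), both with limma adjusted p = 0.049, 1 lower and 1 higher of 27. B2m, the light chain of MHC class I, was at -0.58 (SE 0.16, limma adjusted p = 0.049), 1 of 26. Of the 1302 genes that passed here, 1300 had an adjusted p between 0.045 and 0.05, and without aged rat 2532 none passed, these included.

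Within groups, the 8 tested genes did not vary as a block. After subtraction of group means, over the 22 CA1 libraries, Apoe and Tyrobp had r = 0.82 (0.66 without rat 2532) and Gpnmb and Axl r = 0.70 (0.81). Apoe and Trem2 had r = 0.39 in CA1 (0.77 without rat 2532), Trem2 and Tyrobp 0.43 (0.63), and Apoe and Axl 0.24 (0.57). Spp1 had r between -0.34 and 0.18 with the other 7 genes in CA1 (-0.33 to 0.11). These correlations share library depth and tissue composition, and are given without a test. In DG, Apoe had r = 0.63 with Trem2 (0.45 without rats 2526, 2572 and 2532), 0.63 with Tyrobp (0.60) and 0.67 with Cd68 (0.66), and Gpnmb had r = 0.54 with Axl (0.44). Spp1 in DG had r = 0.52 with Tyrobp (0.51), 0.47 with Cd68 (0.43), 0 with Trem2 (-0.13) and -0.43 with Lpl (-0.56).

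Against the means of marker lists, correlations differed from gene to gene. Trem2 had r = 0.69 with the resting microglia mean in CA1 (0.71 without rat 2532), Tyrobp 0.62 (0.72), Cd68 0.59 (0.60) and Apoe 0.54 (0.77). In DG, Trem2 had r = 0.51 with that mean (0.28 without the 3 rats left out above) and Apoe 0.61 (0.29). Tyrobp had 0.64 (0.61) and Cd68 0.49 (0.41). The DG mural cell mean gave 0.75 (0.55) for Apoe, 0.61 (0.49) for Trem2, 0.55 (0.61) for Tyrobp and 0.53 (0.54) for Cd68. For endothelial cells in the same order, r was 0.69 (0.42), 0.54 (0.34), 0.55 (0.55) and 0.65 (0.67). Axl had r = 0.88 with the astrocyte mean in CA1 (0.88 without rat 2532) and Gpnmb 0.76 (0.89), beside 0.69 and 0.65 with resting microglia (0.72 and 0.66). With the mean of oligodendrocyte precursor markers in CA1, Gpnmb had r = 0.82 (0.80), Axl 0.65 (0.88) and Apoe 0.64 (0.37). The astrocyte mean of 10 markers ran from -0.34 to 0.26 in young vehicle, from -0.11 to 0.45 in young LPS and from -0.14 to 0.12 in aged vehicle, and its part in the Gpnmb and Axl values was not tested. Gpnmb also had r = 0.90 with the mean of the 27 lipid and cholesterol genes in CA1 (0.93), and 0.26 in DG (0.10 without the 3 rats). Lpl ran against the CA1 pyramidal mean in DG, at r = -0.69 (-0.71), but also against oligodendrocytes at -0.59 (-0.71) and astrocytes at -0.52 (-0.73). Its r in DG was -0.21 (-0.79) with mural cells, -0.23 (-0.71) with endothelial cells and -0.35 (-0.69) with resting microglia. With dentate granule neurons it was -0.04 (0.09). In CA1, Lpl had r = -0.78 with oligodendrocyte precursors (-0.64 without rat 2532).

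By single genes with a mean of at least 50, the closest to Gpnmb in CA1 were Srebf1, the regulator of fatty acid synthesis (r = 0.95), Cand2 (0.94) and Plxnb1 (0.93). Among the closest to Axl were Ttc28 (0.90) and Entpd2 (0.88). The closest to Tyrobp were Clic1, Ptpn6 and Tubb2b (0.87, 0.87 and 0.86), to Apoe Yipf1, Ccdc124 and Kars (0.95, 0.93 and 0.92), to Trem2 Rab13, Aimp1 and Dnai1 (0.86, 0.80 and 0.80) and to Spp1 Dnaaf5, Tedc1 and Oma1 (0.76, 0.75 and 0.73). Lpl was closest to the neuronal genes Nrip3 (0.90) and Gabra5 (0.89) and to Rspo2 (0.89) in CA1, and to Itgbl1 (0.94), Cpne4 (0.92) and Rspo2 (0.92) in DG. Rspo2 was thus the gene named for Lpl in both regions. Without rat 2532 the CA1 values were 0.78 for Lpl with Nrip3, 0.77 with Gabra5 and 0.76 with Rspo2, and 0.77 for Apoe with Kars; the other CA1 values stood between 0.75 and 0.95. In DG the closest to Gpnmb were Htra1, Rcsd1 and Syngr2 (0.74, 0.72 and 0.71), to Axl Rela, Syngr2 and Ltbp3 (0.90, 0.82 and 0.78), to Apoe Mrpl28, Trappc2l and Eci1 (0.92, 0.90 and 0.90), to Trem2 Med29, B9d2 and Slc35f6 (0.80 each) and to Tyrobp Rnd2, Crip2 and Sparc (0.87, 0.82 and 0.80).

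**Figure D4:**
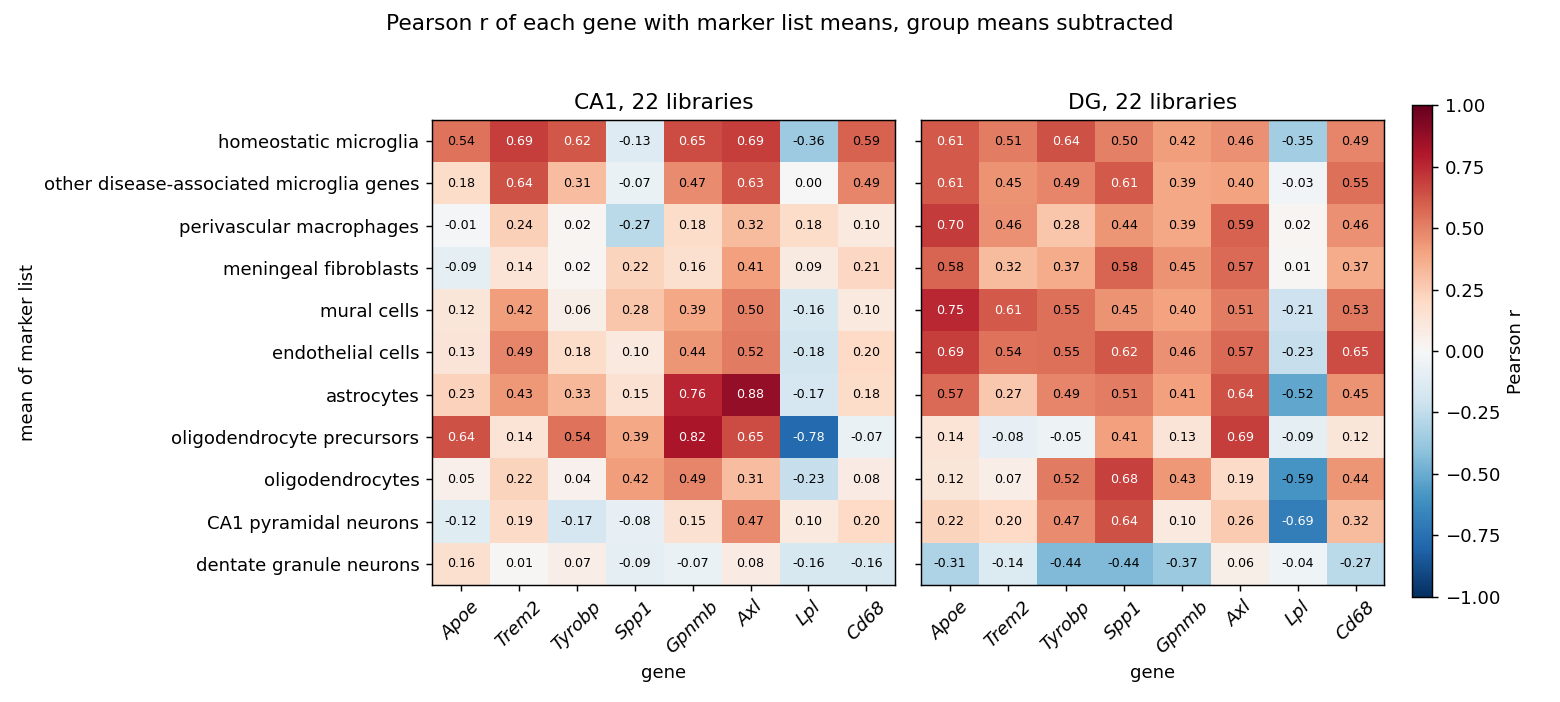
Pearson r over 22 libraries per region, group means subtracted, of each tested gene (x axis) with the mean of each marker list drawn (y axis: 10 cell types and the other disease-associated genes, without the lipid and cholesterol list); red is positive and blue negative. Among these lists, the highest value in CA1 is that of Axl with astrocyte markers (0.88), and in DG Lpl is lowest against CA1 pyramidal markers (-0.69).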

How the data were processed

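The genes and all gene lists were chosen with earlier results of these data known. Each region has 1 table, deposited by the authors, of read counts they had normalized, a signal that is never negative. STAR, Partek, DESeq2 and build rn6 are named without roles or versions, per the submitters' processing notes; the sources used here do not state annotation, filters or strand use. Within 0.1, 99.62% (CA1) and 99.97% (DG) of non-zero values were whole multiples of their library's value of 1 read. This gave the recovered reads. Floors on read counts cover counting error only, while the limma intervals also carry the spread between libraries of a group. A gene was tested where 6 or more libraries of the region reached a value of 10 (14915 in CA1, 14904 in DG, 14637 for the region difference). Tests used limma 3.58.1 (R 4.3.3; eBayes with trend, robust) after a log2 transform with pseudocount 1, the 3 groups of a region fitted together, at a threshold of 0.05. Because the files hold normalized values, edgeR 4.0.16 and DESeq2 1.42.0 were run on recovered reads as alternatives chosen after seeing the data. Other alternatives were other pseudocounts, filters, TMM scaling, group subsets, library weights, moderation without the robust option, the number series of the rats, tissue composition terms, libraries left out and the unpaired region test. The number series, taken from the first digits of the rat numbers, was unevenly spread over the groups, so its term overlaps with age and LPS.

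Groups and rat numbers come from the labels. Rat numbers pair CA1 with DG because, per the labels, both came from 1 hippocampus. The values showed little sign of this pairing. Deviations of same-rat libraries from group means had a median r of 0.051, over 0.1 in 8 of 22 rats, and 1 library was closest to its own partner. The pairing in the test between regions thus rests on the labels. Libraries of a group differed by more than counting noise (lowest chi-square per gene 4.51 in CA1 and 6.49 in DG). Named were all 10 genes; from each pathway and microglia list, genes past the threshold (at most 3 per direction) or otherwise the smallest p, with a selection of these printed; and the 3 genes with highest r for genes with a mean of at least 50. Some genes that these rules name are not reported here. The procedure was tested on simulated data. Protein sequences were not used here.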

Additional observations from a re-analysis of the deposited data

Results flagged for a closer look

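Among 60 sets of values (10 genes in 3 groups of 2 regions), 12 held a library whose distance from its nearest neighbour was large for the range of its group. For independent sets of normally distributed values, chance gives about 1 in 20. That rate need not hold here, since counts can be skewed and the sets share rats. In CA1 of young vehicle rats these were Apoe at 62679 in rat 2572 (next 41693), Trem2 at 304.1 in the same rat (next 188.4) and Lpl at 1189 in rat 2410 (next 751). In CA1 of aged rats they were Apoe at 11843 (next 31306) and Lpl at 1447 (next 629.8), both in rat 2532, and Cd68 at 150.5 in rat 2420 (next 33.5). In DG of aged rats they were Tyrobp at 135.3 in rat 2531 (next 184.7) and Spp1 at 62.9 in rat 2532 (next 23.5). The other 4 were Cst7 values of 1 to 2 reads in groups otherwise mostly at 0: 1.17 in vehicle rat 2731 and 2.08 in LPS rat 2404 in CA1, and 1.11 in vehicle rat 2731 and 2.06 in LPS rat 2403 in DG. A group with reads in only 1 library is always flagged by this rule.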

How the results depend on the processing

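Over 825 values of the 8 tested genes under other settings, 777 kept direction and side of the threshold, 44 turned direction and 4 newly passed; over 1584 values with 1 library left out, 59 turned direction, in 22 results, and none newly passed. With library weights 3 genes passed for age in CA1 (Tyrobp, Spp1 and Gpnmb, among 303 genes, 2.03% of those tested), and with the resting microglia mean as a term 1 passed for LPS against aged in CA1 (Apoe, 0.53, limma adjusted p = 0.0344, among 4044 genes, 27.1%). The cause of these and of the following changes was not tested. All values that turned were of genes that had not passed. With library weights these were Apoe for age in CA1 (0.015), Tyrobp (-0.27) and Gpnmb (-0.082) for LPS against aged in CA1, Apoe (0.16), Trem2 (0.13), Tyrobp (0.11) and Lpl (-0.036) for LPS in DG, and Spp1 (0.68) for age in DG. With the number series of the rats as a term they were Apoe for LPS (-0.031) and Tyrobp (-0.17) and Axl (-0.043) for age in CA1, Spp1 (-0.061) and Cd68 (-0.028) for LPS in DG, and Apoe (-0.12), Trem2 (-0.14), Tyrobp (-0.081) and Cd68 (-0.27) for age in DG. With the resting microglia mean they were Apoe for LPS (-0.016), Tyrobp (-0.029), Axl (-0.12) and Lpl (0.070) for age and Trem2 for LPS against aged (0.011) in CA1, and Tyrobp for LPS (0.050), Apoe for age (-0.032) and Apoe (0.031) and Axl (0.0080) for LPS against aged in DG. Without rat 2532 in CA1 they were Axl for age (-0.0095) and Tyrobp (-0.16) and Gpnmb (-0.023) for LPS against aged. On recovered reads, edgeR and DESeq2 in that order gave Axl -6.1e-05 and -0.0011 and Lpl 0.025 and 0.028 for age in CA1, Tyrobp -0.033 and -0.026 for LPS against aged in CA1, and in DG Tyrobp 0.0026 and 0.0041 for LPS and Spp1 0.27 and 0.26 for age. Spp1 for age in DG was 0.098 with a pseudocount of 5, and Tyrobp for LPS in DG was 0.014 with the meningeal mean as a term. Without rats 2526, 2572 and 2532 in DG, Apoe (0.097) and Tyrobp (0.061) for LPS and Lpl (0.016) for LPS against aged turned.

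With each library left out in turn, values that turned ranged in CA1 for Axl from -0.046 to 0.070 and for Lpl from -0.31 to 0.074 (age), and for Gpnmb from -0.025 to 0.14, Cd68 from -0.48 to 0.22 and Tyrobp from -0.16 to 0.28 (LPS against aged). In DG they ranged for Tyrobp from -0.084 to 0.043, Lpl from -0.045 to 0.21 and Apoe from -0.13 to 0.012 (LPS), for Spp1 from -0.49 to 0.71, Lpl from -0.017 to 0.23 and Apoe from -0.013 to 0.13 (age), and for Lpl from -0.11 to 0.050, Cd68 from -0.10 to 0.17 and Spp1 from -0.43 to 0.77 (LPS against aged). For the difference between regions they ranged for Spp1 from -0.15 to 0.51, Gpnmb from -0.12 to 0.16 and Cd68 from -0.042 to 0.35 (LPS), for Lpl from -0.42 to 0.090, Tyrobp from -0.10 to 0.30 and Spp1 from -0.11 to 1.19 (age), and for Cd68 from -0.49 to 0.14 and Spp1 from -0.97 to 0.33 (LPS against aged).

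Without the rat as replicate block, 0 of 8 genes passed in the tests between regions, as with it; the LPS difference of Axl was 0.39 (limma adjusted p = 0.347). Over the alternatives, the number of all genes passing for LPS against aged in CA1 ran from 0 to 4044, and it was 0 in 7 of the fits with 1 library left out. With a filter on a mean of at least 50, Cd68 and, in DG, Spp1 gave no value. Without the filter on low values, neither Cst7 nor Itgax passed in any comparison (limma adjusted p from 0.217 to 1).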
